A study of Mus musculus with 6 samples.

Results

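The MHC class I antigen presentation pathway is described here by 10 genes, chosen by name, of the 52550 genes in the count table of mouse hippocampus. They are the heavy chains H2-K1, H2-D1 and H2-T23, the light chain B2m, the peptide transporter genes Tap1 and Tap2, the loading factor Tapbp, the transactivator Nlrc5, and the immunoproteasome subunits Psmb8 and Psmb9. Hippocampal RNA was sequenced in 2 groups of 3 libraries, named control and L-DL KD after their labels. All mice were male wild-type C57BL/6 J mice injected at 8 weeks of age with adeno-associated virus into CA1 on both sides. The control group received a control shRNA and the other group shRNAs against L-DL, the long isoform of hnRNP DL, an RNA binding protein of the nucleus. H1 promoters, which are not specific to a cell type, drove the shRNAs, and a CamkIIα promoter drove a fluorescent reporter. The control virus was given at the higher titre, and a difference between the groups cannot be told apart from one of titre. RNA came from hippocampal tissue, a mixture of cell types. The labels also give the L-DL KD mice a knockout genotype, which does not match an shRNA injection, and the group is named L-DL KD throughout.

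Class I molecules show peptides made inside a cell to CD8 T cells. The proteasome, and after interferon exposure its immunoproteasome form, cuts proteins into peptides, the TAP transporter moves them into the endoplasmic reticulum, and tapasin (Tapbp) helps load them onto a heavy chain paired with β2-microglobulin (B2m). NLRC5 drives transcription of most of these genes. In the brain the pathway is best known in endothelium and microglia, and class I molecules of neurons have roles at the synapse.

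None of the 10 genes differed between the groups by edgeR's quasi-likelihood test at a Benjamini-Hochberg adjusted p under 0.05, where 15.6% of the 17621 genes tested were called higher and 15.0% lower (30.5% in all). The log2 fold changes (L-DL KD over control) ran from -0.21 for Tap2 to 0.26 for Tap1, with a median of 0.03 beside 0.01 over all tested genes. At an unadjusted p under 0.05 the count was also 0 of 10, against 41.8% of all tested genes, and DESeq2 called 0 as well. The groups overlapped in each of the 10 genes, whereas they did not overlap in 47.2% of all tested genes. All 15 microglial marker genes were called higher in L-DL KD.

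The libraries held 16052529 to 17913064 counted read pairs, and each of the 10 genes had at least 231 counts in every library. Hnrnpdl, the targeted gene, checked the labels first. Its level was 176, 184 and 171 CPM (read pairs counted on a gene for each 1000000 of the library, scaled by the TMM method) in control and 217, 150 and 173 in L-DL KD, a log2 fold change of 0.03 ± 0.12 (SE, n = 3 a group, edgeR adjusted p = 0.898). Gene counts do not separate the long isoform from the short one. The libraries are therefore named by their labels. The labels do not say that the replicates came from separate animals, so p-values measure the spread between these libraries. Genes of the hippocampal fields CA1 and dentate gyrus were present in every library.

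The promoters of the class I genes are known for shared sequence elements. Enhancer A holds a κB site bound by NF-κB, an interferon-stimulated response element (ISRE) is bound by IRF factors, and the X2 and Y boxes are bound by the complex through which NLRC5 acts. RefSeq start sites were given for 8 of the 10 genes, not for Tap2 and Nlrc5. The 250 bases before the start are shown for the 2 classical heavy chains and B2m, because their levels stayed in the most constant ratio to each other, and for Tap1, which shares its promoter with Psmb9. Build GRCm38.p6 was used, each sequence is written 5′ to 3′ on the strand of its gene, and capitals mark matches on either strand to GAAANNGAA (ISRE core), GGGATTCCC (κB), TTCNNNGAA (GAS core), ATTGG (Y box) and TGACG (X2 box).
H2-K1, chr17:34000348-34000597, minus strand: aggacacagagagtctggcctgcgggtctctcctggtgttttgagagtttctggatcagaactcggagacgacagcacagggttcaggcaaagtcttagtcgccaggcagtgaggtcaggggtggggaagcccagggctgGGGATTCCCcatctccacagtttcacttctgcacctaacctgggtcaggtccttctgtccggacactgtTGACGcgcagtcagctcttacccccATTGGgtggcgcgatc
H2-D1, chr17:35262844-35263093, plus strand: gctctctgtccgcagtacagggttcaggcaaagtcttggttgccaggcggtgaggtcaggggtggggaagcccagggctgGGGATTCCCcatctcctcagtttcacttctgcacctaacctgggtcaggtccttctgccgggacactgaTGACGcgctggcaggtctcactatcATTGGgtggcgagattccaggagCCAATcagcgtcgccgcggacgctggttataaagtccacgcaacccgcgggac
B2m, chr2:122147437-122147686, plus strand: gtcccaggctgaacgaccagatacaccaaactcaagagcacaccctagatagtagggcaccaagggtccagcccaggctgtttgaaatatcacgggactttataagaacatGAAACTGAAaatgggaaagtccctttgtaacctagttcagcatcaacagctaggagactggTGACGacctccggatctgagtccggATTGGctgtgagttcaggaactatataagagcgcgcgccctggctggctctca
Tap1, chr17:34187306-34187555, plus strand: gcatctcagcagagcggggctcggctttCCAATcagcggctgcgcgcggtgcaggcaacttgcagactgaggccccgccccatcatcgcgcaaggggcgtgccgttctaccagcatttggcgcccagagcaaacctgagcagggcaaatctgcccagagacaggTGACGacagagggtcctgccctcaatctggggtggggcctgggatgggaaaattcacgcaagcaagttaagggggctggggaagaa

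The κB letters stood in the H2-K1 and H2-D1 windows, 110 and 170 bases before the start used, and in 0.353% of all 32851 promoter windows of the same length (250 bases before to 50 after a start). The windows of H2-K1 and H2-D1 aligned over 190 bases with 89.5% identity. The X2 letters stood in 5 of the 8 member windows and in 20.8% of all windows. The Y box letters stood in 7 of the 8 and in 37.4% of all. The ISRE core as searched (GAAANNGAA) stood in the windows of B2m and H2-T23 and in 8.56% of all windows. Other forms of the ISRE were not searched, so windows without this match, such as those of H2-K1 and H2-D1, may hold one. The GAS core letters stood in the Psmb8 window and in 8.30% of all. The starts of Tap1 and Psmb9 lay 226 bases apart on opposite strands. Their windows overlap, and the X2 and Y box matches of Tap1 and Psmb9 are the same sites, counted for both genes. These matches describe letters in a window and not bound sites.

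The classical heavy chains H2-K1 and H2-D1 present peptides to CD8 T cells and lie at chr17:33996017-34000347 and chr17:35262730-35267499. H2-K1 was at 735, 693 and 536 CPM in control and at 592, 788 and 872 CPM in L-DL KD. L-DL KD replicate 1 lay among the control libraries and the other 2 lay above them. The log2 fold change was 0.20 ± 0.16 (SE, edgeR adjusted p = 0.401), with a 95% interval of -0.18 to 0.57. H2-D1 was at 1004, 943 and 727 CPM in control and at 808, 1118 and 1182 CPM in L-DL KD. The same libraries were low, and the log2 fold change was 0.22 ± 0.17 (SE, edgeR adjusted p = 0.361, 95% interval -0.16 to 0.60). Of the 150-base stretches of the principal transcript, 0 of 1470 for H2-K1 and 35 of 1953 for H2-D1 also occurred exactly in a transcript of another gene, in the latter case H2-Q1. How reads with mismatches were divided among these similar genes is uncertain.

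H2-T23 (Qa-1) presents leader peptides of other class I chains to receptors of NK and T cells. It was at 183, 139 and 119 CPM in control and at 96.3, 162 and 170 CPM in L-DL KD, with a log2 fold change of -0.05 ± 0.23 (SE, edgeR adjusted p = 0.903). B2m, which every one of these heavy chains needs to reach the cell surface, lies at chr2:122147686-122153083. Its level was 1133, 1076 and 873 CPM in control and 877, 1221 and 1369 CPM in L-DL KD. L-DL KD replicate 1 sat with the lowest control library, and the log2 fold change was 0.17 ± 0.17 (SE, edgeR adjusted p = 0.482, 95% interval -0.21 to 0.55).

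**Figure D1:**
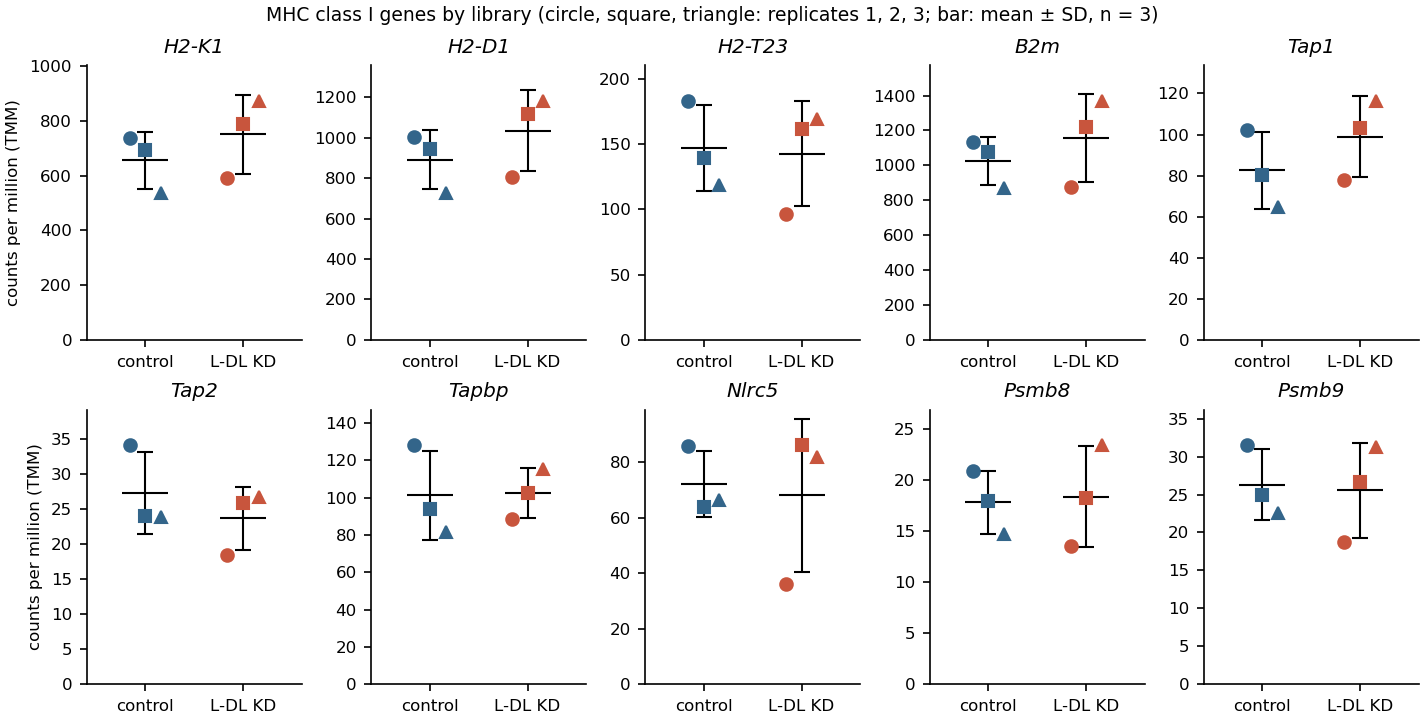
Level of each of the 10 genes by library, in TMM-scaled CPM on linear axes from 0. Circles, squares and triangles are replicates 1, 2 and 3, and bars give mean ± SD (n = 3). In every panel the groups overlap, control replicate 1 is the highest control library and L-DL KD replicate 1 is the lowest L-DL KD library.

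Psmb9 (chr17:34181987-34187764), Tap1 (chr17:34187553-34197225), Psmb8 (chr17:34197721-34201454) and Tap2 (chr17:34203527-34216321) lie side by side within the MHC. Tapbp (chr17:33915899-33929292) and H2-T23 (chr17:36029773-36032855) are on the same chromosome, and Nlrc5 lies outside the MHC at chr8:94434356-94527272. Tap1 and Tap2 form the peptide transporter. Tap1 was at 102, 80.4 and 64.9 CPM in control and at 77.7, 103 and 116 CPM in L-DL KD, and its log2 fold change of 0.26 ± 0.19 (SE, edgeR adjusted p = 0.330) was the highest of the 10. Tap2 was at 34.1, 24 and 23.8 CPM in control and at 18.5, 25.9 and 26.6 CPM in L-DL KD, and its log2 fold change of -0.21 ± 0.19 (SE, edgeR adjusted p = 0.449) was the lowest. Neither differed from 0 beyond its spread. Tapbp, which bridges the transporter and the empty heavy chain, was at 128, 94.1 and 81.8 CPM in control and at 88.8, 103 and 116 CPM in L-DL KD, a log2 fold change of 0.01 ± 0.17 (SE, edgeR adjusted p = 0.961). Exons of antisense genes covered 14.1% of Tap2 exon bases (Gm15821) and 24.9% of those of Tapbp (Gm19412). Whether counting used strand is not given, so reads of such pairs may not be told apart.

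Nlrc5 was at 85.9, 64.1 and 66.6 CPM in control and at 36.3, 86.2 and 81.9 CPM in L-DL KD. It had the widest spread of the 10, with a 2.37-fold range among the L-DL KD libraries, and a log2 fold change of -0.08 ± 0.29 (SE, edgeR adjusted p = 0.856, 95% interval -0.75 to 0.58). The immunoproteasome subunits Psmb8 and Psmb9 replace Psmb5 and Psmb6 in the catalytic core. Psmb8 was at 20.8, 17.9 and 14.7 CPM in control and at 13.5, 18.2 and 23.4 CPM in L-DL KD, a log2 fold change of 0.04 ± 0.21 (SE, edgeR adjusted p = 0.906). Psmb9 was at 31.5, 24.9 and 22.5 CPM in control and at 18.8, 26.7 and 31.2 CPM in L-DL KD, a log2 fold change of -0.04 ± 0.20 (SE, edgeR adjusted p = 0.898). For both subunits the groups overlapped.

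Psmb8 had fewer gene counts than junction reads. Reads across the junctions of 1 exon-skipping event of Psmb8 numbered 587, 532 and 339 in control, against 338, 305 and 231 read pairs counted on the whole gene, and their sum over the control libraries was 1.67 times that of the gene counts. For B2m the same ratio was 0.957. Exons of the antisense gene Gm20496 cover 14.7% of Psmb8 exon bases, and their part in the low counts was not tested. With junction counts scaled to the junction total of each library, an alternative chosen after seeing the data, the log2 difference of Psmb8 between the groups was 0.09 and the groups overlapped (exact permutation p = 0.6).

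Compared per length, B2m stood above all other members. In control it was at 1194 ± 159 CPM per kilobase of its principal transcript (SD, n = 3), followed by H2-D1 at 424 ± 69.1, H2-K1 at 405 ± 64.8 and H2-T23 at 99.9 ± 22.4. Tapbp (35.0 ± 8.26), Tap1 (27.9 ± 6.34) and Psmb9 (19.5 ± 3.43) came next on the same scale. Psmb8 (10.9 ± 1.89), Nlrc5 (9.53 ± 1.58) and Tap2 (7.93 ± 1.71) were lowest. The place of Psmb8 rests on gene counts that were fewer than its junction reads, and is uncertain. Among neighbours in this order, the control ranges did not overlap between B2m and H2-D1, H2-K1 and H2-T23, H2-T23 and Tapbp, or Psmb9 and Psmb8. They overlapped between the other neighbours, although each of the 3 control libraries held the same order. In junction reads of an exon-skipping event of each gene, Psmb9 stood below Psmb8 in control (234, 195 and 182 against 587, 532 and 339).

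**Figure D2:**
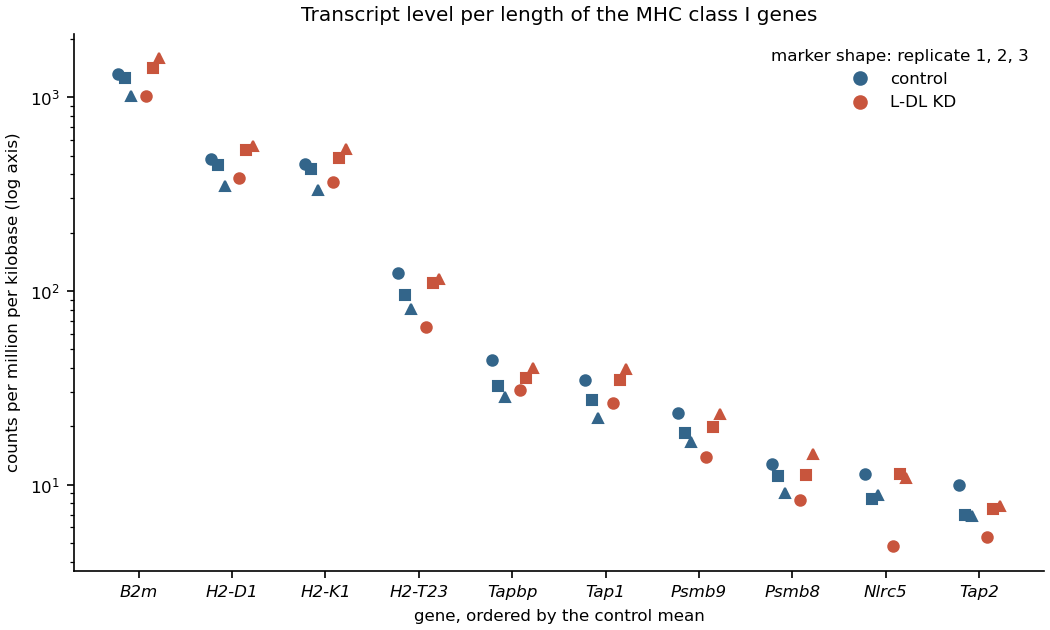
CPM per kilobase of principal transcript (log axis) for the 10 genes, ordered by the control mean. Each point is 1 library, blue for control and red for L-DL KD. B2m is highest at 1194 in control, the classical heavy chains follow near 400 and Tap2 is lowest at 7.93.

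The 10 genes followed one another from library to library. Control replicate 1 was the highest control library for 10 of 10 and control replicate 3 the lowest for 9 of 10. L-DL KD replicate 1 was the lowest L-DL KD library for 10 of 10, and L-DL KD replicate 3 the highest for 9 of 10, with Nlrc5 the exception in both cases. Relative to the mean of the 6 libraries, the members averaged 0.25, -0.04 and -0.26 on the log2 scale in control and -0.38, 0.15 and 0.29 in L-DL KD. The steadiest ratio was that of H2-K1 to H2-D1, which ran from 0.705 to 0.738 across all 6 libraries. The CPM ratio of H2-K1 to B2m ran from 0.614 to 0.675.

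Choroid plexus genes varied between the same libraries. Their summed level was 1709, 435 and 4612 CPM in control and 5176, 115 and 31.7 CPM in L-DL KD, so the lowest member levels of each group coincided with its highest choroid plexus level. All 6 choroid plexus genes were detected in every library and 0 were called by edgeR. Their part in the member levels was not tested. Without L-DL KD replicate 1, H2-D1 (log2 fold change 0.37, adjusted p = 0.043) and B2m (0.34, adjusted p = 0.041) were called higher by edgeR. In that fit 3236 of all 17253 genes tested were called higher. Without both L-DL KD replicate 1 and control replicate 3, an alternative chosen after seeing the data, 0 of the 10 were called. There 31.2% of all tested genes were called, and H2-D1 stood at 0.24 (edgeR adjusted p = 0.062).

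Of the 45 ratios between 2 members, 12 did not overlap between the groups (26.7%), against 44.4% of ratios over all pairs of tested genes. Tap1 relative to Tap2 was among them. It was 3.0, 3.35 and 2.73 in control and 4.21, 3.98 and 4.36 in L-DL KD, a log2 difference of 0.47. This is the smallest p that 3 against 3 libraries allow (exact permutation p = 0.1, adjusted over the 45 ratios 0.375).

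**Figure D3:**
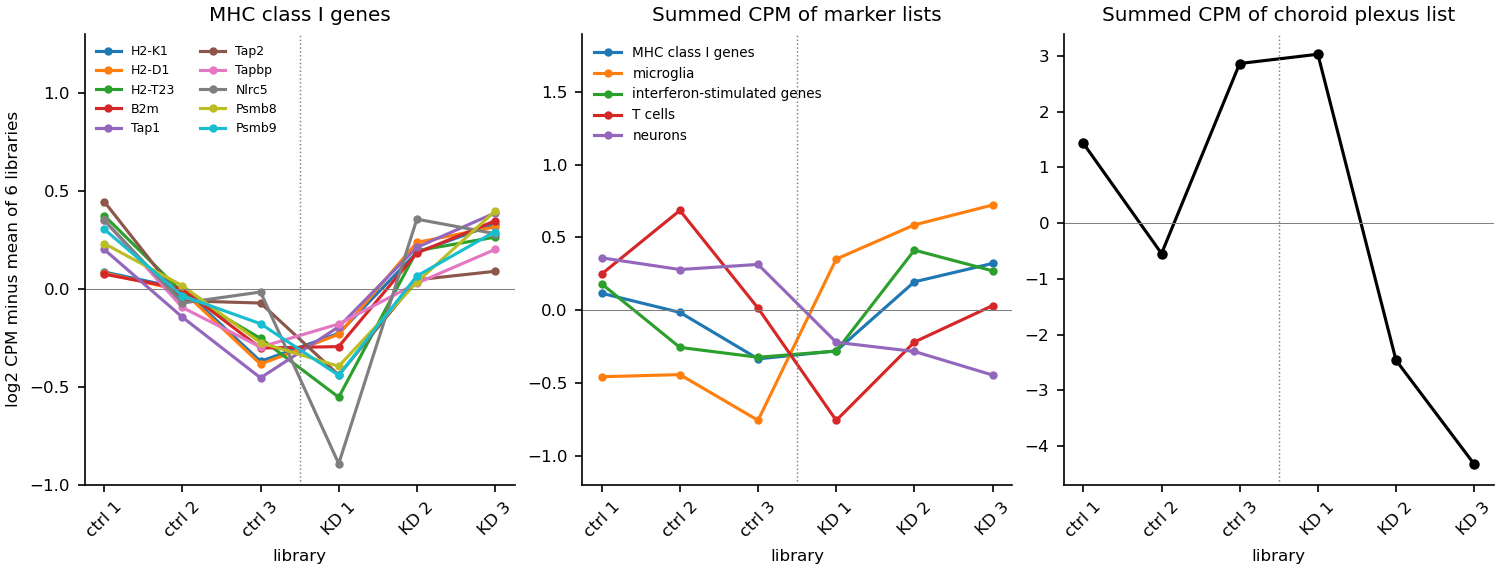
Log2 CPM minus the mean of the 6 libraries (lines join libraries only to aid reading, and the dotted line parts control from L-DL KD). Left, the 10 class I genes; middle, summed CPM of the class I genes and of 4 marker lists; right, the choroid plexus list on its own scale. The class I genes are low in control 3 and L-DL KD 1, and the microglial list is higher in all 3 L-DL KD libraries.

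The other genes of the pathway were read from 7 lists of 72 genes, of which 65 were tested. Of these, 17 were higher, 3 lower and 45 not called, with a median log2 fold change of 0.12. Without control replicate 3 the higher genes numbered 11 of 65, beside 1770 of all 17369 genes tested. Without L-DL KD replicate 1 they numbered 23 of 65, beside 3236 of all 17253 genes tested. Over the 6 libraries the share called in either direction (30.8%) is near the 30.5% of all tested genes. By direction, 17 of 65 were higher beside 15.6% of all tested genes, and 3 of 65 were lower beside 15.0%. Among the other class I and class Ib heavy chains, 15 of 20 were tested, 3 were higher and 1 lower. H2-M3, which presents formylated peptides, rose from 11.3, 11.8 and 9.59 CPM to 12.5, 18.2 and 22 CPM (log2 fold change 0.69 ± 0.21 SE, edgeR adjusted p = 0.040). The non-presenting relatives Hfe, an iron regulator (log2 fold change 1.22), and Fcgrt, the neonatal Fc receptor (0.64), also rose. H2-M2 fell from 10.11, 6.41 and 4.57 CPM to 0.441, 0.673 and 0.298 CPM, a log2 fold change of -3.87 ± 0.41 (SE, edgeR adjusted p = 0.001). It was the only member of that list to fall, and it was higher in every control library. The class Ib genes H2-Q4, H2-Q6, H2-Q7 and H2-T22 had log2 fold changes of -0.10, 0.12, -0.14 and 0.06, none of which passed the test.

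In the loading and trimming list, 1 of 9 genes was higher, 1 lower and 7 not called. Sec61a1, a subunit of the channel into the endoplasmic reticulum, rose by a log2 fold change of 0.56 ± 0.12 (SE, edgeR adjusted p = 0.011). Abcb9, a lysosomal peptide transporter related to TAP, fell (log2 fold change -0.82 ± 0.22 SE, edgeR adjusted p = 0.024). The chaperones Calr, Canx and Pdia3, the tapasin relative Tapbpl and the trimming peptidase Erap1 had values of -0.11, 0.18, 0.20, -0.36 and 0.14, none of which passed the test.

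Of 6 other genes of the immunoproteasome and the proteasome activators 2 were higher and 0 lower, and of the 3 constitutive catalytic subunits 2 were higher and 0 lower. Psmb7 rose from 49.5, 46.2 and 45.3 CPM to 59.8, 63.8 and 61.4 CPM (log2 fold change 0.39, edgeR adjusted p = 0.005). Psmb6 rose by 0.23 (edgeR adjusted p = 0.042), and Psmb5 stood at 0.05 (edgeR adjusted p = 0.711). Pomp, a proteasome assembly factor, and Psme4, an activator, rose by 0.59 and 0.42. The inducible subunit Psmb10 was at -0.21 and the inducible activator subunits Psme1 and Psme2 at 0.27 and 0.32, none called. Each inducible subunit was also divided by the constitutive subunit it replaces. The log2 ratio of Psmb10 to Psmb7 was -0.08, -0.30 and -0.31 in control and -1.15, -0.76 and -0.61 in L-DL KD, without overlap. Its difference was -0.61 (exact permutation p = 0.1, the smallest possible, 0.118 adjusted over the 13 ratios computed). Over all pairs of tested genes, 44.4% of ratios did not overlap either. The ratios of Psmb8 to Psmb5 and of Psmb9 to Psmb6 overlapped, with differences of -0.03 and -0.29 (exact permutation p = 0.9 and 0.4).

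Among 17 regulators of class I transcription, 5 were higher, 1 lower and 11 not called. Ciita, the class II counterpart of Nlrc5, fell from 22.1, 13.4 and 13.0 CPM to 5.84, 6.90 and 8.88 CPM (log2 fold change -1.17 ± 0.25 SE, edgeR adjusted p = 0.010). The NF-κB genes Rela (log2 fold change 0.58) and Nfkb1 (0.45) rose, as did Rfx5 (0.72) and Nfyc (0.36) of the complexes that bind the X and Y boxes. Irf8, which microglia express, rose by 1.01. Irf1, an interferon-inducible regulator, stood at -0.27 and was not called. Of 7 tested interferon receptor and kinase genes, Ifngr1 (1.03), Ifnar2 (0.64) and Tyk2 (0.26) rose and 0 fell. Ifng itself had too few counts to be tested, at 6, 13 and 5 counts in control and 0, 1 and 1 in L-DL KD. Of 8 genes for receptors of class I molecules, Lilrb4a rose (0.98), while the inhibitory receptor Pirb stood at 0.88 (edgeR adjusted p = 0.060) and Cd8a at -0.04.

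**Figure D4:**
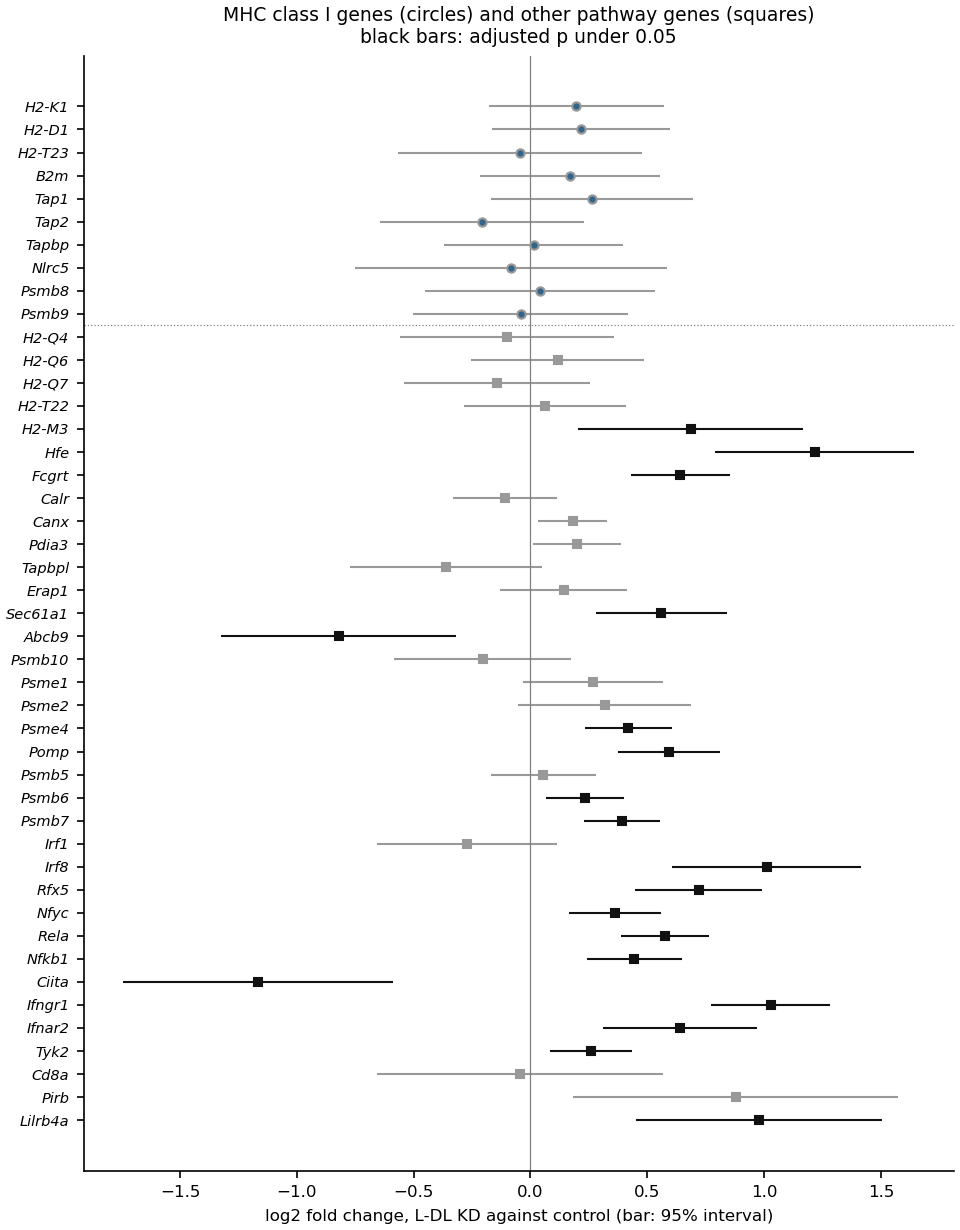
Log2 fold changes of L-DL KD against control with 95% intervals for the 10 class I genes (circles, above the dotted line) and other pathway genes (squares). Black bars have an edgeR adjusted p under 0.05. The intervals of all 10 class I genes cross 0; H2-M2, at -3.87, is outside the plotted genes.

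Interferon-stimulated genes were read as a list of 20. Of these, 9 were higher, 0 lower and 11 not called, with a median log2 fold change of 0.56. Over all tested genes 15.6% were called higher and 15.0% lower. Usp18, Mx1 and Irf7, genes known for their response to type I interferon, rose by 1.23, 1.35 and 1.09. They were chosen after their values were seen. Ifit3, Oasl2 and Ifi27 of the same list were at 0.53, 0.50 and -0.20, and none of them was called. The GTPase genes Igtp and Iigp1, known for their response to interferon-γ, had log2 fold changes of -0.65 (edgeR adjusted p = 0.120) and -0.73 (edgeR adjusted p = 0.105). Iigp1 was at 161, 106 and 119 CPM in control and 41.7, 92.4 and 99.3 CPM in L-DL KD, with replicate 1 lowest as for the class I genes.

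The microglial list moved apart from the class I genes. Its 15 genes were all called higher (median log2 fold change 1.06), none was at 0 in any library, and their summed level was 1499 to 1864 CPM in control and 3233 to 4183 CPM in L-DL KD. Fewer cells of a type and less RNA per cell cannot be told apart in bulk tissue. The level of each of the 10 genes relative to the mean of the microglial genes was lower in L-DL KD without overlap, as was that of 85.0% of all tested genes outside that list. For B2m this log2 ratio was 4.05, 3.90 and 3.90 in control and 2.72, 3.0 and 3.04 in L-DL KD, a difference of -1.03. Over the 10 genes the differences ran from -1.39 (Tap2) to -0.92 (Tap1), each with an exact permutation p of 0.1 (0.118 adjusted over the 13 ratios computed). They restate that one list rose and the other did not.

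**Figure D5:**
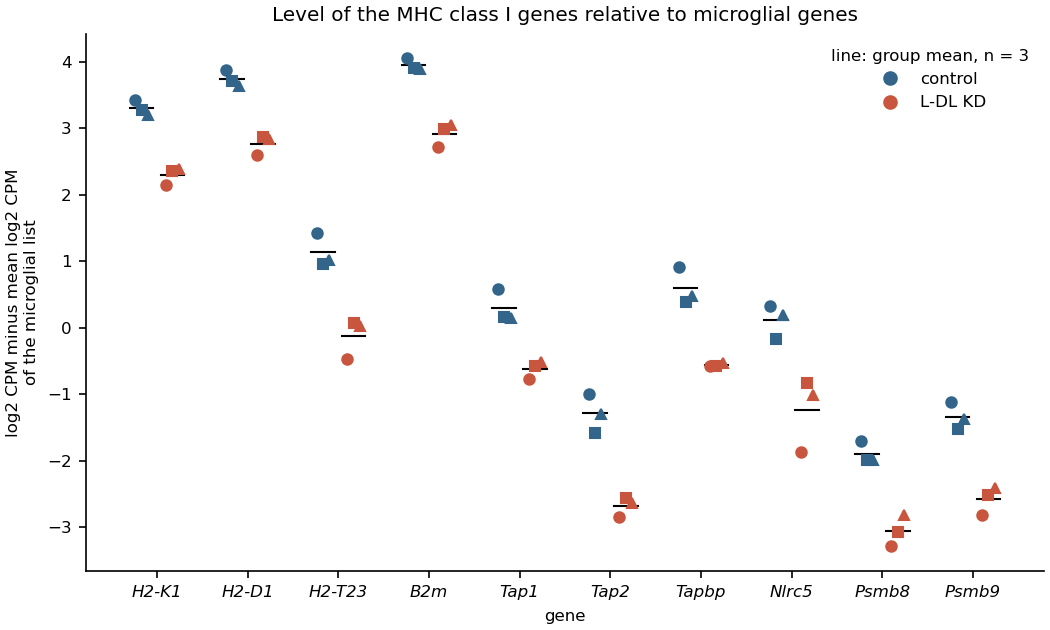
Log2 CPM of each class I gene minus the mean log2 CPM of 15 microglial genes, by library, with a line at each group mean (n = 3). Control (blue) lies above L-DL KD (red) for all 10 genes, by 1.03 for B2m.

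Neuronal genes were lower in 11 of 13 and higher in 1 (median log2 fold change -0.56), with 7018, 6716 and 6003 CPM summed in L-DL KD against 9926 to 10493 in control. CA1 genes were lower in 4 of 6, dentate granule cell genes in 2 of 6 with 1 higher, and astrocyte genes in 4 of 10 with 2 higher. Endothelial genes, from a cell type rich in class I molecules, were higher in 5 of 12 and lower in 0 (median 0.46), and oligodendrocyte genes in 2 of 10 and lower in 0. T cell genes, which include Cd8a and Cd8b1 of the receptor list, were lower in 2 of 11 (Lck and Trac, median of the list -0.75), and their summed level was 55.9 to 89.0 CPM in control and 32.7 to 56.6 CPM in L-DL KD, lowest in replicate 1. Monocyte and border macrophage genes were higher in 2 of 7, and of 8 B and plasma cell genes 0 were called. The part of these lists in the class I levels was not tested.

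The genes whose pattern over the 6 libraries was most like the mean of the 10 members were Lxn, Cysltr2, Pgam5, Gm17167 and Kcng2. Likeness was measured as the root mean square difference of centred log2 CPM, which was 0.05 for Lxn and 0.08 for Kcng2, beside a median of 0.36 over all tested genes. Psmb9 ranked closest among the members at 0.06 and Nlrc5 farthest at 0.25.

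The deposited splicing output held 43 events in the 10 genes, of 40961 in all, and 21 of them had enough junction reads to be tested. None was called by edgeR (smallest adjusted p = 0.276), against 0.255% of the 18829 events tested. An unadjusted p under 0.05 was reached by 4 of the 21 and by 13.3% of all tested events. Replicates in these columns carry no number, and the groups were assigned from the authors' sign convention for PSI differences. PSI (percent spliced in, here from 0 to 1) is the share of the inclusion form after division by its effective length. The median absolute PSI difference between the groups over the 21 events was 0.005, and the largest was 0.13 for exon 12 of Nlrc5, which rested on 14 to 32 counts a library.

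The short exons near the 3′ end of the heavy chain genes encode part of the cytoplasmic tail. Exon 7 of H2-D1, 39 bases at chr17:35266688-35266726, had a PSI of 0.991, 0.990 and 0.991 in control and 0.993, 0.997 and 0.996 in L-DL KD. Skipping reads numbered 23, 26 and 16 in control and 16, 10 and 13 in L-DL KD. This was the only tested event of the 10 genes whose PSI values did not overlap between the groups, beside 18.4% of all tested events with a PSI in every library. Its difference was 0.005 (edgeR unadjusted p = 0.017, adjusted p = 0.283). The matching exon of H2-K1, 39 bases at chr17:33996616-33996654, had PSI values from 0.993 to 0.997 in control and from 0.994 to 0.998 in L-DL KD in its tested event. A second event of the same exon, with fewer reads and not tested, had at most 2 skipping reads in a library. For exon 6 of H2-K1, 33 bases at chr17:33996827-33996859, the tested event had 0 skipping reads in the 3 control libraries and 0, 11 and 5 in L-DL KD, beside 1722 to 3123 inclusion reads (edgeR adjusted p = 0.276). Another event of this exon, between other flanking exons and not tested, had 0, 2 and 0 skipping reads in control and 2, 0 and 0 in L-DL KD. The form of H2-D1 with 15 more bases at an alternative 3′ splice site (chr17:35266467-35266481) was at a PSI of 0.021 to 0.032 in control and 0.023 to 0.024 in L-DL KD.

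The listed introns differed in how often they were retained. The retained intron of Psmb9 at chr17:34183745-34184281 had a PSI of 0.10, 0.154 and 0.147 in control and 0.084, 0.107 and 0.072 in L-DL KD, which overlapped (edgeR adjusted p = 0.539). Skipping of exon 5 of Psmb9 was read 0 times in control and 0, 5 and 3 times in L-DL KD (edgeR adjusted p = 0.323). Exon 2 of B2m, which encodes most of the protein, was skipped in at most 7 reads of a library, against 13033 to 21896 inclusion reads. Intron retention in H2-T23 lay between a PSI of 0.042 and 0.064 in control and 0.055 and 0.065 in L-DL KD, and in Psmb8 between 0.015 and 0.020 and between 0.006 and 0.025. An 84-base intron event of Tap1 (chr17:34192858-34192941) was almost always in the retained form, with a PSI of 0.98 to 1 in every library.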

How the data were processed

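RNA of 3 control and 3 L-DL KD libraries was enriched with oligo(dT) and sequenced by the authors as 150 nt read pairs, aligned to GRCm38. The submitters' processing notes list HISAT2 (version 2.1.0), HTSeq (version 0.6.1) and Bowtie (version 1.1.2) without their roles. The authors deposited raw read counts per gene and junction counts from rMATS, with their own p-values and PSI differences, which were not used. Symbols were matched to 52403 of 52550 gene identifiers.

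Counts of genes with at least 10 in at least 3 libraries were TMM-scaled, and edgeR (version 4.0.16) tested them at an adjusted p under 0.05. Intervals (95%) are approximate and cover the spread between libraries. Log2 CPM had a prior count of 2. Splicing events with a mean of at least 20 junction counts, and 1 of each form, were tested with edgeR on both forms. Junction columns were assigned to groups from the sign convention of the authors' PSI difference. Single values were compared with exact permutation tests (two-sided), which cannot go below p = 0.1 for 3 against 3. Principal transcripts came from GENCODE. Both fits were tested on simulated data. R (version 4.3.3), DESeq2 (version 1.42.0), limma (version 3.58.1), Python (version 3.11.15) and scipy (version 1.17.1) were used. Alternatives were other scalings, filters and tools, the replicate number as a block, and the omission of 1 library at a time.

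The members and all gene lists were chosen with earlier results of these data known. Text genes were the 10 members, called genes of the pathway lists, a fixed set of pathway genes (1 is not reported here), tested events of the members and the 5 genes nearest in pattern. Iigp1, Igtp, Usp18, Mx1, Irf7, Ifit3, Oasl2, Ifi27 and the pair ratios were chosen after their values were seen.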

Additional observations from a re-analysis of the deposited data

How the results depend on the processing

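No member was called under scaling by library size, DESeq2 size factors, DESeq2 itself, no filter, a filter of 50 counts or the replicate block, and those alternatives turned no member's direction. Leaving out 1 library gave 0 to 2 members called higher and 0 called lower, the 2 being H2-D1 and B2m without L-DL KD replicate 1. Without that library 3236 of all 17253 genes tested were called higher. The direction of 5 members depended on single libraries, with log2 fold changes of -0.19 to 0.18 for H2-T23, -0.12 to 0.22 for Tapbp, -0.28 to 0.22 for Nlrc5, -0.17 to 0.22 for Psmb8 and -0.21 to 0.14 for Psmb9. The other members kept their direction but not their size. They ran from 0.07 to 0.35 (H2-K1), 0.09 to 0.37 (H2-D1), 0.03 to 0.34 (B2m), 0.11 to 0.44 (Tap1) and -0.30 to -0.02 (Tap2). In junction counts, added after seeing the data, the log2 difference turned to 0.057 for Nlrc5 and 0.093 for Psmb9. That of Tap2 was -0.50 in junction counts, beside -0.21 in gene counts, and its groups still overlapped. Other pathway genes called higher numbered 11 to 23 and those called lower 2 to 4 over the libraries left out, and 11 without control replicate 3. The cause was not tested. Deviations of same-numbered libraries from their group means had correlations of 0.05, 0.13 and -0.11. With 3 libraries a group these weak values cannot show whether the numbers pair the samples. With the replicate block 0 members, and 14 other pathway genes higher and 3 lower, were called. Member events called stayed at 0 under all alternatives. On leaving out libraries the log2 change of inclusion turned sign for the intron of Tap2 (-0.17 to 0.50) and Psmb8 (-1.12 to 0.098), the introns of H2-T23 (-0.025 to 0.27) and H2-K1 (-0.094 to 0.60), alternative 3′ sites of H2-D1 (-0.26 to 0.032) and Tap1 (-0.26 to 0.58), and for Nlrc5 its 5′ site (-0.63 to 0.27), exons 2 (-0.98 to 0.87) and 3 (-0.71 to 0.31) and 2 exclusive exon pairs (-0.25 to 0.23 and -0.22 to 0.19). Ratios to the microglial list kept their direction with summed in place of mean levels. With 3 libraries a group, member intervals spanned up to -0.75 to 0.58 (Nlrc5), so changes within them were not detectable.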
